A study of Mus musculus with 9 samples.

Results

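The urothelium, the epithelium that lines the bladder, was compared with the detrusor, the smooth muscle coat of the bladder wall, in newborn mice. The comparison used 6 of the 9 arrays of the series, 3 of urothelium and 3 of detrusor, put into their layers by the tissue source in the labels. The 3 remaining arrays, of stroma, entered the estimate of the spread. They also entered the choice of the genes tested, of the probe set for each gene and of the constant added before taking log2. Both layers came from FVB/N mice of unstated sex that carried the SMGA/EGFP transgene, in which the promoter of smooth muscle gamma actin, named for the gene Actg2, is paired with the green fluorescent protein EGFP. Animals without the transgene were not among the samples. Detrusor 1 and 2 and urothelium 2 were taken on postnatal day 1, and detrusor 3 and urothelium 1 and 3 on day 2. Each array held RNA from 1 unpooled sample, cut out of frozen sections by laser capture and amplified in 2 rounds. The labels do not tie samples to animals, so the p-values rest on the scatter of these arrays alone, and part of that scatter may be technical.

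The urothelium is built of basal, intermediate and umbrella cells. Umbrella cells cover the side that faces urine with plaques of uroplakin proteins, which reach the surface in vesicles, and seal the spaces between cells with tight junctions, so that water, ions and urea pass slowly. The detrusor contracts through smooth muscle actin and myosin when nerves release acetylcholine and ATP, and calcium entry and store release set the force. During development the urothelium secretes Sonic hedgehog, to which the mesenchyme that forms the muscle coat responds.

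Levels are given as log2(intensity + 39.31), a scale on which a signal of 0 stands at 5.3, and a difference is always the urothelium mean minus the detrusor mean, with its standard error (SE). A gene is called where limma's adjusted p was under 0.05 over the 13064 genes tested. All arrays had been scaled to a trimmed mean of 1500 intensity units before deposit, and the median SE of a difference was 0.45. The ratio of 3' to 5' signal for the control gene Actb, which rises with RNA degradation, ranged from 2.27 to 7.49 in detrusor and from 5.32 to 8.49 in urothelium. That of the control gene Gapdh was higher on every array, from 15.9 to 34.7 in detrusor and from 19.1 to 23.4 in urothelium. Across genes, Pearson's r was 0.925 to 0.958 between detrusor arrays and 0.892 to 0.919 between urothelium arrays. Between the layers it was 0.698 to 0.758 for urothelium 1 and 2 and 0.793 to 0.807 for urothelium 3 (genes are not independent replicates, so these values only describe the arrays). In bulk tissue, fewer cells of a type and less RNA per cell cannot be told apart.

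In urothelium 1094 genes were higher (8.37% of the genes tested) and 1051 were lower (8.05%), and 3852 (29.5%) had an unadjusted p under 0.05 in either direction. The counts of gene lists and families below are to be read against the shares of 8.37% and 8.05%. Of the called genes, 668 (5.11%) and 590 (4.52%) differed by at least 2 log2 units. All 1094 and all 1051 kept their sign within each postnatal day, which the choice of the genes on the same arrays largely fixes. The 3 arrays of urothelium lay above the 3 of detrusor for 2524 genes (19.3%) and below them for 2612 genes (20.0%). Without urothelium 3, 862 genes were higher (6.6%) and 963 lower (7.37%). Of the 1094 higher genes, 836 (76.4%) stayed called, and of the 1051 lower genes 849 (80.8%) did. A further 26 higher and 114 lower genes were called only without that array. Calls were fewer when an array of these layers was left out, down to 656 higher and 516 lower without detrusor 3, the lowest of both counts, and 624 lower without detrusor 1 and 599 without urothelium 2.

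**Figure D1:**
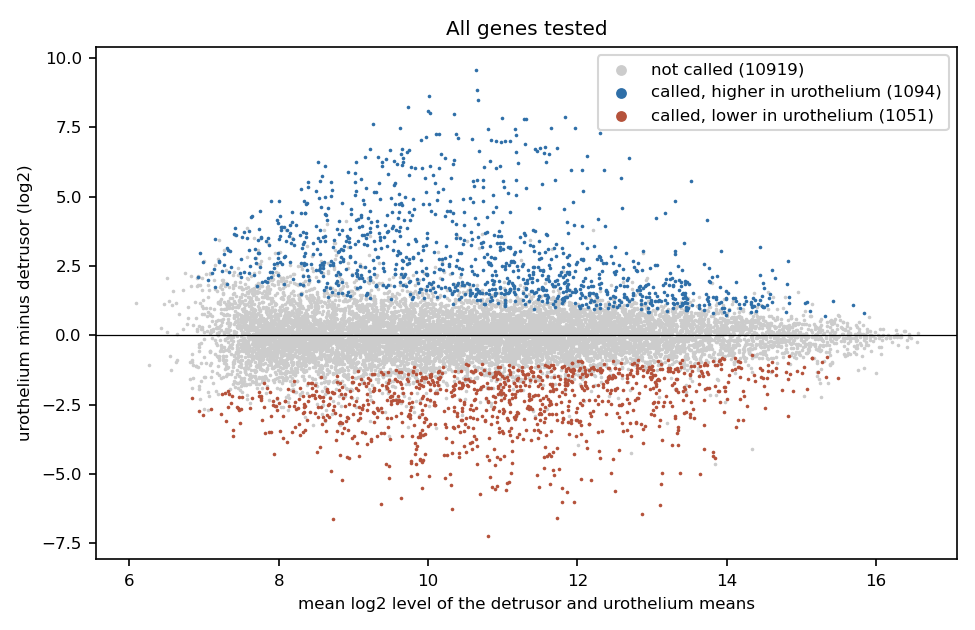
Each point is 1 of the 13064 genes tested, with the mean of its detrusor and urothelium log2 levels on the x axis and the difference between the layers (urothelium minus detrusor, log2) on the y axis. The 1094 genes called higher in urothelium (blue) and the 1051 called lower (red) lie on both sides at all levels but the highest, and the largest difference is the 9.56 of Shh.

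Marker genes of both layers are given for each array as a description. They were chosen with earlier results of these data known, so they cannot check the labels. Shh, which encodes Sonic hedgehog, stood at 15.16, 15.60 and 15.51 in urothelium and at 6.39, 5.68 and 5.52 in detrusor. Every urothelium array was thus far above every detrusor array, and the difference of 9.56 ± 1.11 (SE, n = 3 per layer) had an adjusted p of 0.000723. Krt15, a keratin of basal epithelial cells, had levels of 13.96, 15.26 and 13.80 against 5.61, 5.75 and 5.72 (8.65 ± 1.09, adjusted p = 0.00106). Foxa1, a forkhead transcription factor of the bladder epithelium, had 14.76, 15.31 and 14.68 against 5.54, 5.50 and 8.19 (8.50 ± 1.14, adjusted p = 0.00135), with detrusor 3 the highest of its layer. The detrusor markers ran the other way but did not separate the arrays as cleanly. P2rx1, the ATP-gated channel through which nerves excite the bladder muscle, stood at 14.92, 15.19 and 14.92 in detrusor and at 7.13, 5.83 and 12.37 in urothelium (-6.57 ± 1.42, adjusted p = 0.00997). Tnnc2, the fast skeletal troponin C, had 14.42, 14.28 and 14.56 in detrusor and 5.78, 5.64 and 10.15 in urothelium (-7.22 ± 0.95, adjusted p = 0.00124). For both genes urothelium 3 lay between the other urothelium arrays and the detrusor arrays, and without it the differences were -8.53 and -8.70. Actg2 itself had 16.14, 16.74 and 16.27 in detrusor and 10.94, 9.64 and 16.33 in urothelium, so that the layers overlapped and the difference was not called (-4.08 ± 1.42, adjusted p = 0.0762). It was called without urothelium 3 (-6.09, adjusted p = 0.0013).

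**Figure D2:**
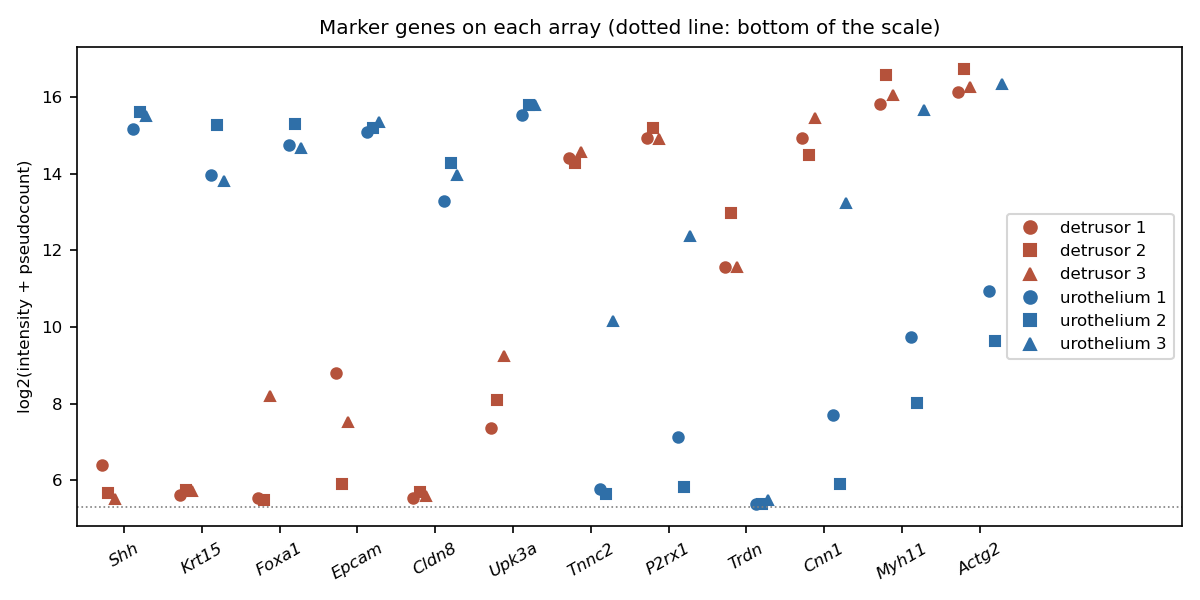
Log2 levels of marker genes (y axis) on each of the 3 detrusor arrays (red) and 3 urothelium arrays (blue), with 1 symbol per array and a dotted line at the bottom of the scale, 5.3. Shh, Krt15 and Foxa1 separate the layers on every array, whereas urothelium 3 reaches 16.33 for Actg2, at the detrusor level, and 12.37 for P2rx1.

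Urothelium 3 carried transcripts of smooth muscle at levels that the other urothelium arrays lacked. On the linear scale Actg2 had 82280 intensity units in urothelium 3, which is 94.9% of the detrusor mean, against a mean of 1.54% in urothelium 1 and 2. Of 25 contractile genes, 24 exceeded 10% of the detrusor mean in urothelium 3, and 7 did in the mean of urothelium 1 and 2. The share ran from 9.83% for Pcp4 to 149% for Tpm2 in urothelium 3, and from 0.288% to 45.8% in urothelium 1 and 2. The median share over the list was 45.4% in urothelium 3 and 2.64% in the other pair. The summed intensity of the list was 987000 to 1420000 in detrusor, 137000 in urothelium 1, 93900 in urothelium 2 and 903000 in urothelium 3, and 0 of its 25 genes were under 1 unit on any array. Epithelial transcripts were not short to the same degree, as the uroplakin, keratin and transcription factor lists had medians in urothelium 3 of 86.0%, 83.8% and 77.6% of the mean of urothelium 1 and 2. Receptor genes of muscle reached a median of 33.8% of the detrusor mean against 21.0%, skeletal muscle genes 14.7% against 2.71%, and fibroblast and matrix genes 58.3% against 24.1%. Among the 1051 genes called lower in urothelium, urothelium 3 was the highest of the 3 urothelium arrays for 681 (64.8%), against 34.4% of all genes tested. For the 1094 higher genes it was the highest in 184 (16.8%) and the lowest in 511 (46.7%), and it was the lowest for 30.9% of all genes tested. Values without this array are therefore given beside many of the muscle and matrix genes that follow.

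**Figure D3:**
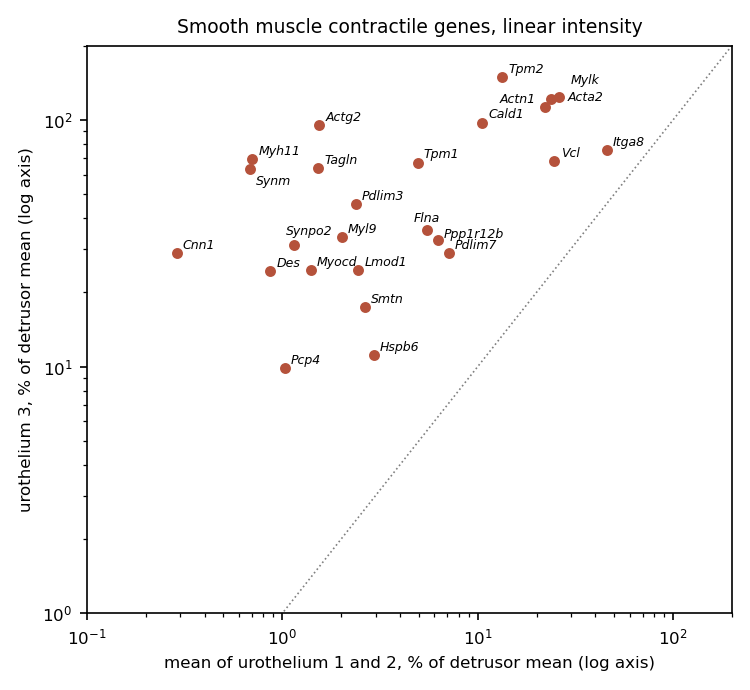
Each of the 25 contractile genes is plotted by its linear intensity in urothelium 3 (y axis) against the mean of urothelium 1 and 2 (x axis), both as a percentage of the detrusor mean on log axes, with a dotted line where both are equal. All 25 points lie above the line, from 9.83% for Pcp4 to 149% for Tpm2.

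Contractile genes of smooth muscle were lower in urothelium. Of the 25 tested, 18 were called lower and 0 higher, with a median difference of -3.98, beside -0.01 over all genes tested. Without urothelium 3, 24 were lower and the median was -4.98, and the median within postnatal day 1 was -5.21 and within day 2, where urothelium 3 belongs, -3.25. Hspb6, a small heat shock protein that takes part in relaxation, stood at 13.83, 14.05 and 13.58 in detrusor and 8.99, 8.73 and 10.69 in urothelium (-4.35 ± 0.51, adjusted p = 0.00073). Smtn, the actin-binding smoothelin of contractile smooth muscle, had 13.73, 13.27 and 14.31 against 8.92, 8.51 and 11.33 (-4.19 ± 0.67, adjusted p = 0.00252). In both genes urothelium 3 was above the other urothelium arrays and still below all detrusor arrays, and without it the differences were -4.96 and -5.06. Ppp1r12b, a subunit of the phosphatase that acts on myosin light chain, differed by -3.17 ± 0.54, and Pcp4, a small binding partner of calmodulin, by -5.65 ± 1.03 (-3.95 and -6.86 without urothelium 3). The intermediate filament gene Des differed by -5.04 ± 1.09, the regulatory light chain gene Myl9 by -4.36 ± 0.95 and Myocd, the coactivator that switches on smooth muscle genes together with the serum response factor, by -4.45 ± 0.95. Without urothelium 3 these 3 differences were -6.58, -5.76 and -5.74. Some of the best known members were nearer to detrusor in urothelium 3 than in the other urothelium arrays, and their differences were larger without it. Myh11, the smooth muscle myosin heavy chain, had 15.81, 16.57 and 16.06 in detrusor and 9.75, 8.03 and 15.65 in urothelium, a difference of -5.01 ± 1.47 (adjusted p = 0.0406) that was -7.26 (adjusted p = 0.00015) without it. Tagln differed by -4.20 ± 1.26 (adjusted p = 0.0445) and Cnn1, calponin, by -6.02 ± 1.56 (adjusted p = 0.0241), and without urothelium 3 these differences were -5.99 and -8.16. The calls of these 3 genes were lost without detrusor 1, 2 or 3 or urothelium 1 or 2, with adjusted p up to 0.137 for Myh11, 0.161 for Tagln and 0.0869 for Cnn1, and those of Myh11 and Tagln also without stroma 1, and that of Tagln without stroma 3. The calls of Myh11 and Tagln were also lost with no trend or no filter (adjusted p of 0.0614 and 0.052 for Myh11 and of 0.0672 and 0.0566 for Tagln), that of Myh11 in the 6 arrays alone (0.0538) and that of Tagln with postnatal day as a covariate (0.0516). Acta2, smooth muscle alpha actin, was high on all 6 arrays, with 16.05, 16.92 and 16.18 in detrusor and 14.56, 14.14 and 16.72 in urothelium, and was not called (-1.25 ± 0.59, adjusted p = 0.191). It was called without urothelium 3 (-2.04, adjusted p = 0.00853).

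Part of the genes of the calcium and cyclic nucleotide control of muscle were lower as well. Of 12 receptor and excitability genes 7 were lower in urothelium and 0 higher, with a median of -2.09 (8 lower and a median of -2.36 without urothelium 3). The 5 not called were Atp2a2, the gene of the calcium pump (-0.36 ± 0.25), Ryr2 (-1.23 ± 0.85), Kcnma1 (-1.06 ± 0.43), Gucy1a1 (-1.57 ± 0.54) and Gucy1b1 (-1.67 ± 0.61). Gucy1a1 was called without urothelium 3 (limma adjusted p = 0.0386). Pln, phospholamban, which restrains the calcium pump of the sarcoplasmic reticulum, had 11.91, 13.56 and 11.41 in detrusor and 6.83, 7.28 and 7.62 in urothelium (-5.05 ± 0.67, adjusted p = 0.00127), and here urothelium 3 stayed close to the other urothelium arrays. Prkg1, the protein kinase that cyclic GMP activates, differed by -2.33 ± 0.47, and Pde5a, the phosphodiesterase that degrades cyclic GMP, by -1.84 ± 0.32. The beta subunit gene of the large-conductance potassium channel, Kcnmb1, had 10.63, 11.28 and 11.03 in detrusor and 5.48, 5.42 and 9.11 in urothelium (-4.31 ± 0.95, adjusted p = 0.0109, and -5.53 without urothelium 3). Of 45 potassium channel subunits 11 were lower (24.4%) and 5 higher (11.1%), and of 13 calcium channel subunits 4 were lower (30.8%) and 0 higher. Of all genes tested 8.05% were lower and 8.37% higher. Kcnq5, a subunit of M-type potassium channels, differed by -5.15 ± 0.94 (-5.96 without urothelium 3). Cacna1h, a T-type calcium channel, differed by -3.13 ± 0.61.

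Several of the largest differences on the detrusor side belonged to genes named for striated muscle. Trdn, triadin of the calcium release complex, stood at 11.57, 12.97 and 11.56 in detrusor and at 5.38, 5.39 and 5.49 in urothelium, at the bottom of the scale on all 3 arrays, urothelium 3 included (-6.62 ± 0.53, adjusted p = 0.000152). At such low levels the size depends on the pseudocount, and with the lower and higher settings it was -8.50 and -4.22. Trdn entered the genes tested through its detrusor arrays alone, so its p-value is not independent of that choice. Cav3, the muscle caveolin, had 12.94, 12.14 and 12.61 against 5.62, 5.71 and 8.80 (-5.85 ± 0.76, adjusted p = 0.0012). Ckm, muscle creatine kinase, had 14.05, 13.55 and 13.90 against 7.50, 6.60 and 10.64 (-5.59 ± 0.82, adjusted p = 0.00184). The fast troponin T gene Tnnt3 differed by -6.26 ± 1.04, slow Tnnt1 by -5.43 ± 0.81 and Casq1, calsequestrin, by -4.39 ± 0.72. Without urothelium 3 these 3 differences were -7.82, -6.41 and -5.18, and those of Cav3 and Ckm were -6.90 and -6.78. Pgm5, a structural protein of muscle adhesion sites related to phosphoglucomutase, differed by -5.99 ± 1.28 and Sntg2, a syntrophin, by -5.72 ± 0.95 (-7.90 and -7.10 without urothelium 3). Acta1, skeletal alpha actin, had 15.91, 16.27 and 16.10 in detrusor and 8.21, 5.98 and 14.75 in urothelium (-6.45 ± 1.78, adjusted p = 0.031). Its call was lost without detrusor 1, 2 or 3 or urothelium 1 or 2 (adjusted p up to 0.108), and without urothelium 3 the difference was -9.00 (adjusted p = 0.000507). Actin genes are near-identical copies, and how far their probe sets take up each other's transcripts was not tested. Of the 16 skeletal muscle genes tested 8 were called lower, all high on each of the 3 detrusor arrays. Other members of the list were high on detrusor 1 alone. Embryonic myosin Myh3 had 13.34 there against 8.19 and 7.74 in detrusor 2 and 3, Myl1 11.21 against 6.33 and 5.91, and Myod1, the transcription factor that commits cells to skeletal muscle, 9.09 against 6.09 and 6.59. None of these 3 genes was called. The summed intensity of the 16 genes was 173000, 148000 and 155000 in detrusor and 2610, 1680 and 41900 in urothelium, with 0 genes under 1 unit on any array. The part that captured skeletal muscle had in the called genes was not tested.

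Promoter sequences are shown for genes on the detrusor side because smooth muscle genes are known to be switched on through the CArG box, the site of the serum response factor, a motif of CC, then any 6 letters of A or T, then GG. Sequences were taken from RefSeq (GRCm38.p6) as the 250 bases before and 50 after a gene's start. Of the 13064 genes 10504 had at least 1 such promoter, and 2129 had several. A gene was counted where any of its promoters held a match, so genes with several starts had more chances of 1. Both strands were searched. Among genes with a promoter, the box was found in 1.58% of all genes tested (166 genes), in 4.17% of genes lower in urothelium (34 of 815) and in 1.8% of genes higher in urothelium (15 of 834). Of 21 contractile genes with a promoter, 2 held it in this window (9.52%). The promoters of 3 called muscle genes, skeletal actin Acta1, Myl9 and Vcl, and of Srf, the gene of the serum response factor itself, are printed 5′ to 3′ on the strand of the gene, with the match in capitals.
Acta1, chr8:123894726-123895025, minus strand, match starting 73 bases before the start: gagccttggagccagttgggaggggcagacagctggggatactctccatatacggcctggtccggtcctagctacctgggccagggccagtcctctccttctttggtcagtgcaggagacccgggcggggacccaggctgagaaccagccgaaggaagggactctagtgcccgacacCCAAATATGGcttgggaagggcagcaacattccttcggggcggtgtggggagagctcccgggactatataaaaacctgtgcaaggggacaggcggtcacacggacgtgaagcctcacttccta
Myl9, chr2:156775214-156775513, plus strand, match starting 161 bases before the start: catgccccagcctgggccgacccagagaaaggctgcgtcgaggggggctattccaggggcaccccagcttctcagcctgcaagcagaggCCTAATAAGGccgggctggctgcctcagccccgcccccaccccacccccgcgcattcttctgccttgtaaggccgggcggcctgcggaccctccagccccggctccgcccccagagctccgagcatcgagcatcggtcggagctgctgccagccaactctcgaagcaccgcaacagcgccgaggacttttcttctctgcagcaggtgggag
Vcl, chr14:20929148-20929447, plus strand, match starting 227 bases before the start: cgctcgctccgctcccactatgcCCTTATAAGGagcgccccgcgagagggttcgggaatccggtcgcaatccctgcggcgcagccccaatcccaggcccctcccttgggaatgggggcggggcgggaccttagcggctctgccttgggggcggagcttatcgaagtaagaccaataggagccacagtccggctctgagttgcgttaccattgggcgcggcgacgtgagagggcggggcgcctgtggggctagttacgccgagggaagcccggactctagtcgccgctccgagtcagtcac
Srf, chr17:46556113-46556412, minus strand, 2 matches starting 82 and 62 bases before the start: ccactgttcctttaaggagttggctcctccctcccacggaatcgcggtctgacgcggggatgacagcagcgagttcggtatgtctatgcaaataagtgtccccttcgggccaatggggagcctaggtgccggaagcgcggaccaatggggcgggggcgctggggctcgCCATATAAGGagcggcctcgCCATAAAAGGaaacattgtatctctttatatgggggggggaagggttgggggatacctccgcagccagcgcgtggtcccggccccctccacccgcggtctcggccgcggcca
Srf stood at 13.87, 13.90 and 14.10 in detrusor and at 11.75, 11.66 and 12.79 in urothelium (-1.89 ± 0.40, adjusted p = 0.00872). Vcl, vinculin of the muscle's adhesion plaques, differed by -1.53 ± 0.37 (adjusted p = 0.018, and -2.03 without urothelium 3), a call lost without detrusor 2 or 3 or urothelium 1 or 2 (adjusted p up to 0.0691). Other motifs were rarer or general. AACCGGTT, the site of grainyhead factors, was found for 0.719% of higher genes with a promoter (6 genes), 0.123% of lower genes (1 gene) and 0.295% of all. CAGCTG, an E-box, was in 21.1%, 22.6% and 18.2%. A match is a run of letters and says nothing of binding in these samples.

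The medians of the urothelial identity lists were larger in size than that of the contractile genes. In these lists urothelium 3 lay nearer to the other urothelium arrays than it did in the contractile genes. Single members still varied, and in the keratin and adhesion list urothelium 3 had from 35.2% to 139% of the mean of urothelium 1 and 2. All 11 uroplakin and umbrella cell genes tested were higher in urothelium, with a median of 6.14, as were 17 of 20 keratin and adhesion genes (median 5.59) and 14 of 17 epithelial transcription factors (median 4.90), and 0 members of these lists were lower. The same counts were 11, 17 and 14 without urothelium 3, with medians of 6.24, 5.58 and 5.20, beside -4.98 for the contractile genes. Upk3a, a uroplakin that spans the plaque membrane, had 15.53, 15.80 and 15.78 in urothelium and 7.36, 8.10 and 9.24 in detrusor (7.47 ± 1.31, adjusted p = 0.00373). Krt20, a keratin of umbrella cells, had 12.41, 13.26 and 12.51 against 7.36, 6.52 and 5.88 (6.14 ± 0.70, adjusted p = 0.000638). Upk1b had 15.66, 16.07 and 15.91 against 9.67, 8.46 and 10.34 (6.40 ± 1.09, adjusted p = 0.00333). Detrusor 2 was the lowest for Upk1b and for many other epithelial genes, such as Epcam, an adhesion protein of epithelia, with 5.91 against 8.81 and 7.52 in detrusor 1 and 3 and 15.09, 15.19 and 15.36 in urothelium (7.80 ± 0.71). Cldn8, a claudin of tight junctions, was at the bottom of the scale on all detrusor arrays, with 5.55, 5.71 and 5.61, and at 13.28, 14.28 and 13.96 in urothelium (8.22 ± 0.64, adjusted p = 0.000152). Among the genes outside the lists with the largest differences were Ripk4, a kinase of epithelial differentiation (8.10 ± 0.58), Gsdmc2 (8.83 ± 1.15), a gasdermin with close copies in the genome, and Tspan8, a tetraspanin (7.80 ± 0.81, with 1 of its 5 probe sets of the opposite sign and not called). Esrp1, a splicing regulator of epithelia kept in the transcription factor list, had 13.84, 14.43 and 13.63 in urothelium and 7.34, 7.27 and 5.93 in detrusor (7.12 ± 0.60, adjusted p = 0.000175). Of the transcription factors, Ehf had 14.05, 14.01 and 14.04 in urothelium and 6.16, 5.56 and 6.33 in detrusor (8.02 ± 0.75, adjusted p = 0.000287), nearly equal levels on the urothelium arrays. Grhl2, a grainyhead factor of epithelial junctions, differed by 4.74 ± 0.42 and Grhl3, which umbrella cells need to mature, by 4.90 ± 0.58.

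**Figure D4:**
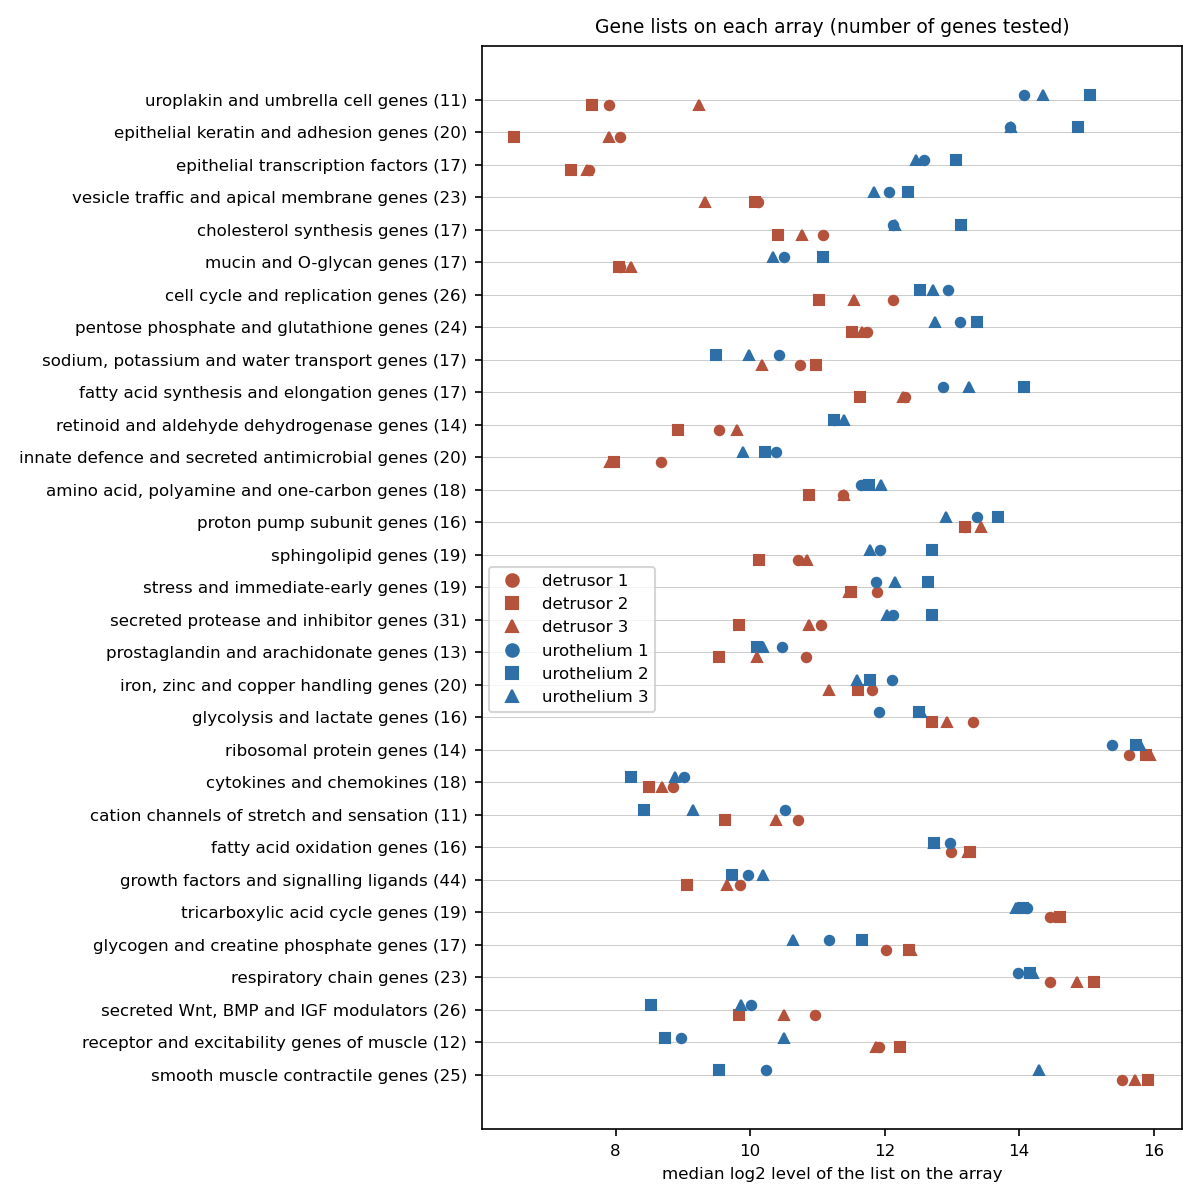
Median log2 level (x axis) of each gene list, named on the y axis with the number of genes tested, on each of the 3 detrusor (red) and 3 urothelium (blue) arrays, in order of the median difference. The epithelial lists at the top separate the layers on all arrays, and in the contractile list at the bottom urothelium 3, at 14.30, lies between urothelium 1 and 2 (10.24 and 9.54) and the detrusor arrays (15.53 to 15.92).

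In fuel metabolism the called genes of the glycolysis and glycogen lists were lower in urothelium, with the exception of Ckmt1. Of 16 glycolysis and lactate genes 3 were lower in urothelium and 0 higher, and the list median was 0.04, so most of the pathway was not told apart. The 3 were Pfkp and Pfkm, phosphofructokinases, and Eno3, the muscle enolase. Pfkp had 14.24, 14.30 and 14.79 in detrusor and 10.87, 10.24 and 12.70 in urothelium (-3.18 ± 0.55, adjusted p = 0.00359, and -3.89 without urothelium 3). Eno3 differed by -3.33 ± 0.58 (-4.05 without urothelium 3). Of 17 glycogen and creatine phosphate genes 5 were lower and 1 was higher. Ppp1r3c, which brings a phosphatase to glycogen, had 13.51, 13.57 and 14.14 in detrusor and 9.19, 8.86 and 10.03 in urothelium (-4.38 ± 0.53, adjusted p = 0.000804). The glycogen synthase Gys1 differed by -2.14 ± 0.39 and the glycogen phosphorylase Pygl by -2.41 ± 0.48, so genes of both the synthesis and the breakdown of glycogen were higher in detrusor. Creatine kinase genes split between the layers. Ckb, the brain-type cytosolic enzyme, had 15.44, 16.16 and 15.65 in detrusor and 11.18, 9.55 and 14.22 in urothelium (-4.10 ± 0.90, adjusted p = 0.0107, and -5.39 without urothelium 3), whereas the mitochondrial Ckmt1 had 5.58, 6.47 and 7.04 in detrusor and 10.77, 12.36 and 9.74 in urothelium (4.59 ± 0.83, adjusted p = 0.00444). The insulin-responsive glucose transporter gene Slc2a4 had 12.35, 12.32 and 12.59 in detrusor and 7.70, 6.43 and 10.17 in urothelium (-4.32 ± 0.80, adjusted p = 0.00475, and -5.35 without urothelium 3).

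Genes of the respiratory chain and the tricarboxylic acid cycle differed by small amounts, from -1.25 to -0.05 and from -1.19 to 0.25, and few were called. Of 23 respiratory chain genes 6 were lower in urothelium and 0 higher, with a median of -0.67, and 18 had urothelium arrays that all lay below the detrusor arrays (20.0% of all genes tested did). Of 19 tricarboxylic acid cycle genes 3 were lower and 0 higher, with a median of -0.57 and 13 below without overlap. Within postnatal day 1 and day 2 the medians were -0.66 and -0.70 for the respiratory chain and -0.57 and -0.67 for the cycle. Without urothelium 3, 4 and 1 genes were called. Suclg1, a subunit of succinate-CoA ligase, had 15.10, 15.34 and 15.34 in detrusor and 14.12, 14.13 and 13.96 in urothelium (-1.19 ± 0.23, adjusted p = 0.00567). Ndufb8, a subunit of complex I, had 15.00, 15.14 and 14.97 against 13.82, 13.86 and 13.91 (-1.18 ± 0.26, adjusted p = 0.0107). In both, the arrays of a layer agreed closely and urothelium 3 stayed close to the other urothelium arrays. Fatty acid oxidation was not set apart as a list, with 1 of 16 genes lower and a median of -0.15. That gene was Cpt2, which loads fatty acids into the mitochondrial matrix, with 12.79, 12.63 and 12.56 in detrusor and 11.19, 11.39 and 11.01 in urothelium (-1.47 ± 0.28, adjusted p = 0.00556). Thrsp, a regulator of fat synthesis, was among the 12 lowest genes in urothelium, with 12.26, 12.58 and 12.38 in detrusor and 6.33, 5.46 and 7.20 in urothelium (-6.08 ± 1.04, adjusted p = 0.00333).

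Most cholesterol synthesis genes and a few fatty acid synthesis genes were higher in urothelium. Of 17 cholesterol synthesis genes 11 were higher and 0 lower, with a median of 1.51, and 16 of them had urothelium arrays above all detrusor arrays (19.3% of all genes tested did). Without urothelium 3, 7 were called. Lss, lanosterol synthase, had 11.77, 13.08 and 12.01 in urothelium and 9.56, 10.04 and 9.76 in detrusor (2.50 ± 0.39, adjusted p = 0.00238). Hsd17b7, which acts later in the pathway, differed by 2.34 ± 0.44, and Nsdhl, another late enzyme, by 1.68 ± 0.37. Urothelium 2 was the highest urothelium array for these 3 genes. Of 17 fatty acid synthesis genes 4 were higher and 1 was lower. The elongase gene Elovl6 had 13.51, 14.72 and 13.42 against 11.29, 10.95 and 10.79 (2.87 ± 0.40, adjusted p = 0.00157), and Srebf1, the transcription factor that drives fatty acid synthesis, had 13.67, 13.25 and 13.57 against 11.67, 10.85 and 10.99 (2.33 ± 0.37, adjusted p = 0.00257). Acsl5, which activates fatty acids, differed by 2.53 ± 0.46. The lower member was the desaturase gene Scd1 (-2.48 ± 0.70, adjusted p = 0.034), whose call was lost without any 1 of the detrusor arrays or of urothelium 1 and 2 (adjusted p up to 0.12), and also with postnatal day as a covariate (0.0574), median centring (0.0504), quantile normalization (0.0517) or no trend (0.0503).

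The largest differences in lipid metabolism were in sphingolipid genes, the makers of ceramides, of which 6 of 19 were higher and 1 was lower. Sptssb, a small subunit of serine palmitoyltransferase, the enzyme that starts sphingolipid synthesis, had 15.54, 15.91 and 15.83 in urothelium and 6.59, 7.46 and 9.63 in detrusor (7.87 ± 1.21, adjusted p = 0.0022). Cers3, a ceramide synthase known from the skin barrier, had 14.47, 15.14 and 14.77 against 5.64, 8.32 and 8.76 (7.22 ± 1.27, adjusted p = 0.00379). Degs2, which makes phytoceramide, had 10.64, 12.98 and 10.79 against 6.21, 5.80 and 5.79 (5.54 ± 0.89, adjusted p = 0.00258). Every urothelium array was above every detrusor array for these 3 genes. Another ceramide synthase, Cers6, differed by 3.34 ± 0.53 and Sgpl1, the lyase that ends the pathway, by 2.22 ± 0.34. The desaturase of ordinary ceramides, Degs1, went the other way, with 15.14, 14.90 and 15.19 in detrusor and 13.90, 13.05 and 13.98 in urothelium (-1.43 ± 0.33, adjusted p = 0.0139), a call lost without detrusor 3 or urothelium 2 (adjusted p up to 0.0609).

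Many genes of glutathione metabolism were higher in urothelium, while genes that handle aldehydes went in both directions. Of 24 pentose phosphate and glutathione genes 12 were higher and 1 was lower (median 1.14), and of 18 glutathione transferases 8 were higher and 2 lower (median 1.25), the lists sharing members. Gsta2, an alpha-class transferase with close copies in the genome, had 13.19, 13.30 and 11.88 in urothelium and 6.42, 5.84 and 7.33 in detrusor (6.26 ± 0.53, adjusted p = 0.000175). Gsta4, which acts on the lipid aldehyde hydroxynonenal, had 15.30, 15.56 and 15.29 against 11.32, 9.80 and 11.76 (4.42 ± 0.48, adjusted p = 0.000522). Gstm1 differed by 3.95 ± 0.40, the membrane-bound Mgst1 by 1.94 ± 0.23 and Gclc, the catalytic subunit of the enzyme that limits glutathione synthesis, by 2.32 ± 0.39. The theta-class gene Gstt1 was lower, with 13.34, 13.21 and 13.20 in detrusor and 10.46, 9.09 and 11.09 in urothelium (-3.04 ± 0.49, adjusted p = 0.00264), and so was Gpx7, a peroxidase of the endoplasmic reticulum (-2.24 ± 0.40). Among 14 retinoid and aldehyde dehydrogenase genes 4 were higher and 1 was lower (28.6% and 7.14%, against 8.37% and 8.05% of all genes tested). Aldh1a7, a cytosolic aldehyde dehydrogenase close in sequence to Aldh1a1, had 15.14, 15.75 and 15.19 against 7.90, 8.99 and 9.82 (6.46 ± 0.84, adjusted p = 0.0012). Aldh1a2, which makes retinoic acid, differed by 2.29 ± 0.42 and Aldh3b2 by 3.52 ± 0.55. In the family of 19 aldehyde dehydrogenases, which shares members with that list, 3 were higher (15.8%) and 4 lower (21.1%), with a median of -0.12. By limma 0 of 9 aldo-keto reductases were called (median -0.22), with 0 higher and 1 lower at an unadjusted p under 0.05. Aldh1b1, a mitochondrial member, had 11.97, 12.01 and 12.40 in detrusor and 7.75, 5.67 and 9.58 in urothelium (-4.46 ± 1.07, adjusted p = 0.0168), a call lost without detrusor 2 or 3 or urothelium 2 (adjusted p up to 0.0664). The proline synthesis gene Aldh18a1 was lower, with 14.83, 14.62 and 14.79 in detrusor and 11.35, 11.87 and 12.34 in urothelium (-2.89 ± 0.38, adjusted p = 0.0012). The conjugating enzyme gene Ugt2b34 differed by 5.35 ± 0.81, Abcc3, which exports conjugates from cells, by 5.31 ± 0.65, and Slc47a1, which extrudes organic cations, by 6.41 ± 0.72. Slc47a1 had 13.27, 12.59 and 11.76 in urothelium and 7.45, 5.46 and 5.47 in detrusor. The metal-binding metallothioneins Mt1 (2.36 ± 0.45) and Mt2 (2.20 ± 0.46) were higher too, while 17 of the 20 genes of iron, zinc and copper handling were not called.

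In 1-carbon and arachidonate metabolism fewer genes were called. Of 18 amino acid, polyamine and 1-carbon genes 5 were higher in urothelium and 0 lower (3 without urothelium 3). Mthfd1, a folate enzyme, had 14.50, 13.94 and 14.07 in urothelium and 12.91, 12.77 and 12.38 in detrusor (1.48 ± 0.28, adjusted p = 0.005). Cth, which makes cysteine from cystathionine, differed by 3.30 ± 0.69. Of 13 prostaglandin genes 1 was higher and 1 was lower (7.69% each, against 8.37% and 8.05% of all genes tested), so the list was not set apart. Ptgis, prostacyclin synthase, had 14.69, 13.88 and 15.00 in detrusor and 10.48, 9.78 and 12.46 in urothelium (-3.62 ± 0.58, adjusted p = 0.00256, and -4.39 without urothelium 3). Ptges, a prostaglandin E synthase, had 8.65, 8.01 and 8.22 against 10.52, 12.25 and 9.82 (2.57 ± 0.61, adjusted p = 0.0154), a call lost without detrusor 2 or 3 (adjusted p up to 0.0584).

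Salt and water transporters differed in both directions, with 4 of 17 genes higher in urothelium and 3 lower (23.5% and 17.6%, against 8.37% and 8.05% of all genes tested). The median of the differences was 0.94, although the median level of the list was lower on urothelium 1 to 3 (10.43, 9.50 and 9.99) than on detrusor 1 (10.74) and 2 (10.98). Scnn1g, the gamma subunit of the epithelial sodium channel, had 11.74, 12.25 and 11.00 in urothelium and stood near the bottom of the scale in detrusor, at 5.53, 5.63 and 5.56 (6.09 ± 1.15, adjusted p = 0.00531). Its partner Scnn1b, the beta subunit, had 9.06, 8.82 and 9.15 against 7.41, 6.24 and 7.49, without overlap but not called (1.96 ± 0.63, adjusted p = 0.0558). The water and glycerol channel gene Aqp3 had 13.93, 14.36 and 13.66 against 8.10, 8.55 and 8.45 (5.61 ± 0.84, adjusted p = 0.0019), whereas Aqp1, the water channel of many vessels, had 10.02, 8.14 and 9.95 against 13.26, 11.96 and 13.22 (-3.44 ± 0.62, adjusted p = 0.00436). Regulators of the sodium pump split in the same way, Fxyd3 being higher (5.56 ± 0.83) and Fxyd1, phospholemman, lower (-4.98 ± 0.82, and -5.91 without urothelium 3). Among potassium channels, the 2-pore channel gene Kcnk1 had 14.18, 15.38 and 14.79 in urothelium and 8.84, 5.50 and 9.89 in detrusor (6.71 ± 0.91, adjusted p = 0.0014), and Kcnj8, the pore of ATP-sensitive channels in smooth muscle, was lower (-3.33 ± 0.53). Trpv2, a cation channel that opens on stretch, had 12.85, 13.18 and 13.18 in detrusor and 8.27, 6.25 and 11.18 in urothelium (-4.51 ± 0.94, adjusted p = 0.00858, and -5.81 without urothelium 3). Trpv4, the channel known for stretch sensing in urothelium, had 9.44, 8.43 and 8.68 in urothelium and 7.37, 6.17 and 8.02 in detrusor and was not called (1.66 ± 0.57, adjusted p = 0.0752). Of the 11 channels of stretch and sensation tested, 1 was lower, Trpv2, and 1 was higher, Kcnk2 (9.09% each). Kcnk2 had 10.52, 10.17 and 9.14 in urothelium and 8.59, 8.89 and 7.75 in detrusor (1.53 ± 0.47, limma adjusted p = 0.0472). In the family of 263 solute carriers 27 were higher (10.3%) and 14 lower (5.32%), shares near those of all genes. Its leading members were Slc47a1 and Slc16a12, a transporter of the monocarboxylate family (6.11 ± 1.06), on the urothelial side, and the sodium-calcium exchanger Slc24a3 (-5.18 ± 1.01, and -6.58 without urothelium 3) on the detrusor side.

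The machinery that carries vesicles to the cell surface had 13 of 23 genes higher in urothelium, 0 lower and a median of 2.57. Of the 13, Snx31 and Rab27b also stand in the uroplakin and umbrella cell list. Ap1m2, the epithelial subunit of the adaptor that sorts proteins to the basolateral side, had 12.77, 13.07 and 12.58 in urothelium and 5.88, 7.05 and 7.26 in detrusor (6.08 ± 0.48, adjusted p = 0.000152). Another adaptor subunit, Ap1s3, named for the size of its difference, was 7.97 ± 1.23 higher. Mal2, needed for transport across epithelial cells, was at 5.42, 5.38 and 5.41 in detrusor, the bottom of the scale, and at 11.32, 12.34 and 11.29 in urothelium (6.25 ± 0.85, adjusted p = 0.0014). Rab27b and Sytl2, a small GTPase and its effector in the docking of vesicles, differed by 6.09 ± 0.98 and 4.08 ± 0.45. Rab27b had 13.19, 15.06 and 13.77 in urothelium and 7.55, 6.85 and 9.33 in detrusor. The motor gene Myo5b had 12.66, 12.58 and 12.70 against 7.08, 6.59 and 6.89 (5.79 ± 0.96, adjusted p = 0.00289), and Rab25, which returns vesicles to the apical side, had 12.07, 13.13 and 12.09 against 5.78, 7.13 and 6.06 (6.11 ± 0.81, adjusted p = 0.00128). Snx31, a sorting nexin of uroplakin turnover, differed by 6.61 ± 1.00. By comparison, the proton pump that acidifies vesicles showed 3 of 16 subunits higher (18.8%, against 8.37% of all genes tested) and 0 lower. Its median was 0.44, with differences from -1.26 to 1.10.

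The genes that build mucin-type sugar chains followed the vesicle genes, with 7 of 17 higher and 1 lower (median 1.40). Galnt3, which starts the chains, had 11.31, 12.16 and 11.65 in urothelium and 7.78, 7.39 and 7.30 in detrusor (4.22 ± 0.47, adjusted p = 0.000609). Gcnt3, which branches them, had 12.63, 13.56 and 12.34 against 6.32 to 7.13 in detrusor (6.03 ± 0.97, adjusted p = 0.0026). The membrane mucin gene Muc15 differed by 3.89 ± 0.75. B3gnt5, which extends the sugars of glycolipids, was the lower member, with 12.57, 11.49 and 12.93 in detrusor and 10.20, 9.52 and 9.88 in urothelium (-2.46 ± 0.47, adjusted p = 0.00553).

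Among 44 growth factors and signalling ligands 9 were higher in urothelium and 7 lower (20.5% and 15.9%, against 8.37% and 8.05% of all genes), so genes of both directions were found in this list. Besides Shh, Bmp2 was higher in urothelium, with 13.12, 13.30 and 12.71 in urothelium and 8.25, 8.31 and 7.69 in detrusor (4.95 ± 0.44, adjusted p = 0.000221). Bmp5 had 14.46, 13.22 and 14.63 against 11.13, 7.32 and 10.19 (4.56 ± 0.82, adjusted p = 0.00439), and Bmp7 differed by 2.79 ± 0.42. Of the Wnt ligands, Wnt4 had 12.75, 12.96 and 12.69 against 9.08, 6.40 and 5.89 (5.68 ± 0.91, adjusted p = 0.0026) and Wnt7b differed by 2.31 ± 0.43. Wnt9a went the other way, with 11.10, 11.31 and 11.89 in detrusor and 7.89, 8.19 and 8.53 in urothelium (-3.23 ± 0.38, adjusted p = 0.00073). Tgfa, a ligand of the epidermal growth factor receptor, differed by 3.25 ± 0.52, although 1 of its 3 probe sets had the opposite sign without being called and the mean of the probe sets was not called. On the detrusor side, the fetal growth factor gene Igf2 had 14.91, 13.23 and 13.64 in detrusor and 10.95, 11.14 and 11.29 in urothelium (-2.80 ± 0.66, adjusted p = 0.0151), a call lost without detrusor 1 (adjusted p = 0.0627). Vegfc, the growth factor of lymphatic vessels, had 11.03, 10.96 and 11.10 against 9.07, 6.38 and 8.87 (-2.92 ± 0.71, adjusted p = 0.0174), lost without detrusor 1, 2 or 3 (adjusted p up to 0.0646). Of 26 secreted modulators of Wnt, BMP and IGF signals 1 was higher (3.85%) and 3 lower (11.5%, and 6 lower without urothelium 3). Of 18 cytokine and chemokine genes 1 was higher and 1 lower (5.56% each), so this list was not set apart from all genes. The lower gene was Cxcl12, a chemokine of stromal cells, with 12.76, 12.93 and 12.27 in detrusor and 11.17, 8.80 and 10.25 in urothelium (-2.58 ± 0.50, adjusted p = 0.00617).

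Secreted defence proteins and proteases were higher in urothelium in part of their lists. Of 20 innate defence genes 7 were higher and 0 lower. Wfdc2, a secreted protein of the whey acidic family, had 14.43, 14.35 and 14.46 in urothelium and 8.63, 5.96 and 7.60 in detrusor (7.01 ± 0.98, adjusted p = 0.00156). Defb1, beta-defensin of the urinary tract, had 14.46, 12.98 and 10.65 against 5.63, 6.91 and 6.66 (6.30 ± 0.83, adjusted p = 0.00127), with urothelium 3 well below urothelium 1, and without it the difference was 7.32. Pigr, which carries antibodies across epithelia, differed by 3.80 ± 0.75 and Ly6d, a surface protein, by 7.02 ± 1.00. Of 31 secreted protease and inhibitor genes 13 were higher and 4 lower. The membrane-bound serine protease genes led them, with Tmprss2 at 14.74, 14.87 and 15.05 against 8.26, 6.07 and 8.04 (7.43 ± 0.85, adjusted p = 0.000697) and St14, matriptase, at 12.47, 13.04 and 12.04 against 6.17, 6.52 and 6.08 (6.26 ± 0.86, adjusted p = 0.00149). Prss8, prostasin, which matriptase activates and which in turn opens the epithelial sodium channel, differed by 5.82 ± 0.68, and Spint1, their inhibitor, by 3.64 ± 0.58. The protease and its inhibitor were thus both higher in urothelium. Adamdec1, a metalloprotease, differed by 5.95 ± 0.67 and Ctse, cathepsin E, by 4.49 ± 0.72. The serpin Serpinf1, a secreted factor that restrains vessel growth, was lower, with 12.25, 11.56 and 12.97 in detrusor and 8.96, 7.81 and 10.03 in urothelium (-3.33 ± 0.57, adjusted p = 0.0033).

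**Figure D5:**
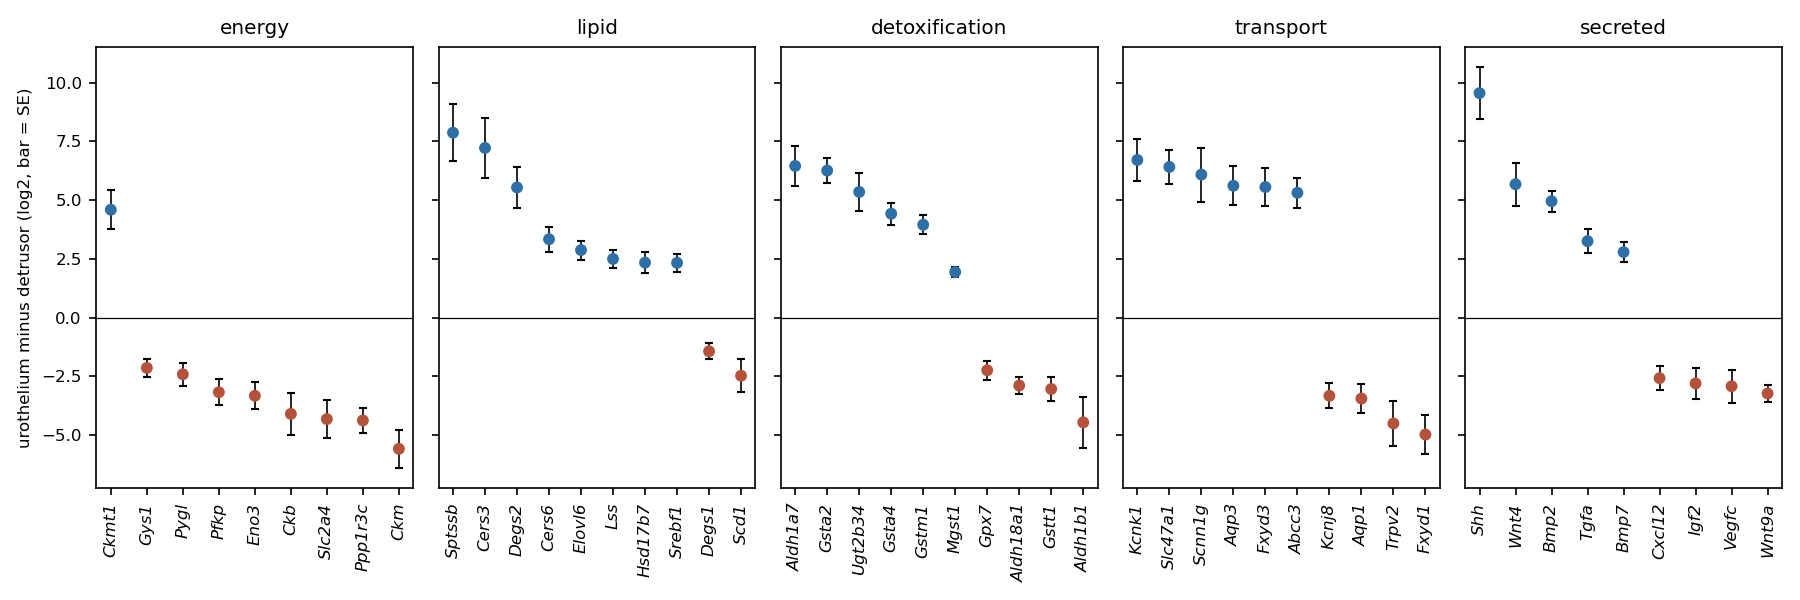
Difference between the layers (y axis, urothelium minus detrusor, log2, bars are SE, n = 3 arrays per layer) of called genes in 5 functions, blue where higher and red where lower in urothelium. The lipid genes shown are higher except Scd1 at -2.48 and Degs1 at -1.43, the energy genes are lower except Ckmt1 at 4.59, and transport, detoxification and secreted factors hold genes of both signs.

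Genes of cell division were moderately higher in urothelium. Of 26 cell cycle and replication genes 11 were higher and 0 lower, with a median of 1.19, and 19 had urothelium arrays above all detrusor arrays (19.3% of all genes tested did). Without urothelium 3, 6 were called, and the medians within day 1 and day 2 were 0.96 and 1.38. Mcm5, a subunit of the replication helicase, had 13.75, 13.80 and 13.84 in urothelium and 12.45, 11.82 and 11.77 in detrusor (1.78 ± 0.31, adjusted p = 0.00348). Cdc20, which drives exit from mitosis, had 14.58, 14.16 and 14.64 against 13.29, 13.00 and 12.62 (1.49 ± 0.26, adjusted p = 0.00353). The arrays of each layer lay close together for both genes. Cdkn1a, the p21 inhibitor of the cycle, was also higher, with 12.41, 13.29 and 11.42 against 10.29, 10.31 and 9.47 (2.35 ± 0.48, adjusted p = 0.00765). The 14 ribosomal protein genes held 0 called members by limma, 0 with an unadjusted p under 0.05 and a median of -0.06.

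Lists of other cell types describe what each sample held besides its own layer. Of 17 fibroblast and matrix genes 10 were lower in urothelium and 0 higher (12 lower without urothelium 3), with a median of -1.56. Lum, lumican, had 14.67, 14.44 and 15.38 in detrusor and 11.34, 11.78 and 12.98 in urothelium (-2.80 ± 0.47, adjusted p = 0.00318, and -3.27 without urothelium 3), and Postn, periostin, had 15.48, 15.76 and 15.78 against 12.36, 11.38 and 14.13 (-3.05 ± 0.57, adjusted p = 0.00522, and -3.80 without urothelium 3). The summed intensity of these genes was 546000 to 634000 in detrusor and 215000, 188000 and 401000 in urothelium, again highest in urothelium 3. By limma 0 of 13 endothelial and 0 of 12 macrophage genes were called, and at an unadjusted p under 0.05 there were 3 endothelial genes lower in urothelium, 0 higher, and 0 macrophage genes. The endothelial median was -1.77 within day 1 and 0.26 within day 2, and the summed intensity of that list ran from 13300 to 42300 in detrusor and from 5820 to 19300 in urothelium, so it overlapped between the layers. That of the macrophage list ran from 8070 to 18300 in detrusor and from 6420 to 9660 in urothelium. Of 9 neural and glial genes 1 was higher (11.1%) and 2 were lower (22.2%), with a list median of -0.79. In 5 of the 9 all urothelium arrays lay below all detrusor arrays (20.0% of all genes tested did). The lower genes were Gap43 (-2.06 ± 0.60, limma adjusted p = 0.0394) and Nefl (-2.19 ± 0.67, limma adjusted p = 0.0467, and 0.0969 without urothelium 3). The higher gene was Uchl1, a ubiquitin hydrolase used as a neuronal marker, with 13.28, 12.14 and 12.75 in urothelium and 9.37, 8.92 and 9.14 in detrusor (3.58 ± 0.53, adjusted p = 0.0019). Of 5 mesothelial genes 3 were higher, of which Krt19 and Upk3b are also urothelial genes and stand in the lists above. The other was Msln, mesothelin, with 10.20, 10.61 and 10.23 in urothelium and 8.20, 7.46 and 7.84 in detrusor (2.51 ± 0.61, limma adjusted p = 0.0179). Wt1 had 10.90, 6.32 and 9.92 against 7.56, 6.29 and 5.52 and was not called (limma adjusted p = 0.21). The part of these cell types in the differences of other genes was not tested. Where a list above held 0 called genes in 1 direction, limma's unadjusted p was under 0.05 in that direction for 0 of its members too, except for the endothelial and aldo-keto reductase genes already given, 1 fatty acid oxidation gene higher, 1 gene of iron, zinc and copper handling lower, 1 proton pump gene lower, 2 vesicle genes lower and 1 innate defence gene lower in urothelium.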

How the data were processed

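Intensities were deposited by the authors for 45101 probe sets on 9 Affymetrix mouse arrays, made with GCOS per the submitters' processing notes (version and scaling not given in the sources used here). They are linear, with a common trimmed mean (2% off each end). To reach the log2 scale 39.31 was added to every deposited value, an amount equal to their 20th percentile. Of the probe sets 34945 had 1 gene symbol, 932 several, 9160 none, and 64 were controls. Those at or above the array median on at least 3 of 9 arrays were kept (22207), and each gene took its brightest probe set on average (13064 genes, 5620 with several). A gene low elsewhere could thus pass through the 3 arrays of 1 layer alone, as Trdn did through detrusor. For such genes the filter and the difference rest on the same arrays. Of the 152 called named genes counted below, 131 also passed a stricter filter of 6 of 9 arrays. Tests used limma 3.58.1 under R 4.3.3, with lmFit on the 9 arrays, no term besides layer, eBayes with a trend, and Benjamini-Hochberg adjustment over all genes. The number of arrays limits the precision. In data simulated for this comparison (13064 genes) changes of 1, 2, 3 and 4 log2 units were recovered for 0%, 50%, 74% and 82% of 50 genes each, and 0.0311% of unchanged genes were called. Only these genes were changed there, far fewer than the 2145 called in the data, which makes the adjustment stricter. The recovered shares therefore do not carry over directly to the data.

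Genes eligible to be named were Actg2, the 5 markers, the 12 largest non-overlapping called differences in each direction, the 8 largest without urothelium 3, the 4 members of each list with the smallest adjusted p with up to 2 against its median, and the 2 largest in each direction of each family. The text names a selection of these, made with their values known. The members, lists and tests were chosen with earlier results of these data known. Myh11, Tagln, Acta2, Des, Myocd, Myl9, Vcl, Srf, Casq1, Myh3, Myl1, Myod1, Upk1b, Upk3a, Cers3, Scnn1g, Scnn1b, Aqp1, Wnt4, Wnt7b, Tgfa, Bmp5, Igf2, Vegfc, Ckb, Pygl, St14, Spint1, Ctse, Muc15, Pigr, Gclc, Rab27b, Myo5b, Atp2a2, Ryr2, Kcnma1, Gucy1a1 and Gucy1b1 were added after their values were seen. Alternatives varied normalization, pseudocount, filter, probe set choice, postnatal day, array weights, variance model and the arrays included.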

Additional observations from a re-analysis of the deposited data

How the results depend on the processing

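The count of called genes depended on the arrays and on weighting. With limma array weights 1954 genes were higher and 1831 lower in urothelium, and without detrusor 1 and urothelium 3 the counts were 653 and 645. With 1 array left out they ran from 656 to 1253 higher and from 516 to 1182 lower. Under the other alternatives both counts stayed within 1.5 times those reported, with 878 higher and 858 lower under median centring and 1415 and 1337 in the 6 arrays alone. The median over all genes shifted by 0.0078 log2 units under median centring and by 0.000626 under quantile normalization. No paired analysis was possible because the replicate numbers follow the order of deposit and the labels tie no array of one layer to an array of the other.

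Of 152 called genes named here (Gap43, Nefl, Hspa1b, Msln and Kcnk2 not counted), 132 stayed called in every alternative that tested them (131 of the 152 passed the stricter filter on dim probe sets), 13 lost the call when 1 array was left out and 7 only under another setting. Among those 7, the call of Nsdhl was lost under median centring (adjusted p = 0.0511), that of Ndufb8 under median centring and without detrusor 1 and urothelium 3, those of B3gnt5 and Dnajb1 in the latter setting, those of Cxcl12 (-1.70) and Tgfa (1.13) with the mean of probe sets, and that of Cpt2 with the mean of probe sets (-0.81) and without detrusor 1 and urothelium 3. The call of Pfkm was lost without detrusor 1, detrusor 3 or urothelium 2 (adjusted p up to 0.0619). Besides the losses given with Myh11, Tagln, Scd1 and Lgals3, the calls of Pfkm, Degs1, Igf2 and Vegfc were lost without detrusor 1 and urothelium 3, and that of Ptges with the mean of probe sets. The causes were not tested. With 1 array left out, differences of these genes were 0.687 to 1.45 times those reported. Within a single postnatal day there are 1 or 2 arrays per layer, so those values carry no test.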

Other observations

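Several gene families that stand in no comparison above held called genes, to be read against the 8.37% of all genes tested that were higher in urothelium and the 8.05% that were lower. Of 15 phosphodiesterases, which degrade cyclic AMP or cyclic GMP, 6 were lower in urothelium (40%) and 1 higher (6.67%), with a median difference of -1.36. Pde4d, which degrades cyclic AMP, had log2 levels of 12.26, 12.89 and 12.92 in detrusor and 8.42, 8.64 and 10.54 in urothelium (-3.49 ± 0.75, SE, n = 3 per layer, limma adjusted p = 0.00974, and -4.16 without urothelium 3). Adcy5, an adenylyl cyclase that makes cyclic AMP, had 13.29, 13.74 and 13.25 in detrusor and 8.37, 7.03 and 11.05 in urothelium (-4.61 ± 0.79, limma adjusted p = 0.00345, and -5.73 without urothelium 3). Rgs2, which shortens signals of receptors coupled to Gq, had 15.61, 16.60 and 15.95 against 11.27, 9.93 and 13.69 (-4.42 ± 0.98, limma adjusted p = 0.0111, and -5.45 without urothelium 3). In each of these genes all urothelium arrays lay below all detrusor arrays, and urothelium 3 was the closest to them.

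Of 35 collagen genes 11 were lower in urothelium (31.4%) and 1 higher (2.86%). Col25a1, a membrane-anchored collagen, had 14.71, 15.47 and 14.86 in detrusor and 11.14, 9.29 and 13.34 in urothelium (-3.76 ± 0.82, limma adjusted p = 0.0107, and -4.80 without urothelium 3). The higher member was Col18a1, a basement membrane collagen, with 13.44, 13.42 and 13.11 in urothelium and 12.45, 11.28 and 11.32 in detrusor (1.64 ± 0.35, limma adjusted p = 0.00968). Of 7 galectins, secreted proteins that bind sugars, 2 were higher and 1 was lower, with a median of 0.38. Lgals3 had 15.58, 15.69 and 15.91 in urothelium and 11.45, 9.58 and 11.62 in detrusor (4.84 ± 1.13, limma adjusted p = 0.0143), a call lost without detrusor 2 (0.0635) and without detrusor 1 and urothelium 3 (0.0665). Lgals1 was the lower member, with 15.90, 16.15 and 16.07 against 14.09, 13.66 and 14.60 (-1.92 ± 0.25, limma adjusted p = 0.00119). Of 32 cytochrome P450 genes 6 were higher (18.8%) and 4 lower (12.5%), with a median of -0.20. Cyp2s1 was 3.51 ± 0.54 log2 units higher in urothelium (limma adjusted p = 0.00208). Cyp7b1, which hydroxylates oxysterols, had 12.85, 13.72 and 12.93 in detrusor and 9.86, 8.50 and 10.96 in urothelium (-3.39 ± 0.54, limma adjusted p = 0.00252, and -3.99 without urothelium 3). Among the stress genes, 4 of 19 were higher (21.1%) and 1 was lower (5.26%), and Dnajb1, a heat shock co-chaperone, had 14.83, 15.00 and 14.52 in urothelium and 13.25, 13.93 and 12.59 in detrusor (1.53 ± 0.34, limma adjusted p = 0.0115, and 0.0509 without detrusor 1 and urothelium 3). The lower gene was another heat shock gene, Hspa1b, with 14.55, 15.09 and 14.56 in detrusor and 13.38, 13.67 and 13.74 in urothelium (-1.14 ± 0.27, limma adjusted p = 0.0165). Heat shock genes thus went in both directions.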
